A study of Mus musculus with 3 samples.

Results

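Olfactory receptor genes (Olfr genes) were examined in a table of transcript models for mouse testis. The 60 genes described here were those with at least 1 model whose code in the table did not begin with XX, and they are called retained genes. They made up 60 of 1117 Olfr genes. The other 1057 had models coded XX only. The members were chosen by this code, a deposited value, so the division into retained and XX-only genes is a description and no test was made of it. The sources used here do not say what the codes stand for. A code is not a measure of expression, and the label "retained in testis" could not be checked against read counts.

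The series held 3 libraries, all from wild-type C57BL/6J testes and 1 per group. One was CAGE, which reads capped 5′ ends of RNA, at 10.5 days post partum, another was CAGE in adults, and the last was PAS-Seq, which reads polyadenylated 3′ ends, in adults. The table gave 50081 models for the series as a whole, with positions, strands and exons and no value per library. Library depth is unknown, there was no replicate error to set a difference against, and genes of 1 table are not replicates, so shares and medians are given as descriptions with no test.

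Olfactory receptors are G-protein-coupled receptors that bind odorants at the cilia of olfactory sensory neurons, where they act through the G protein subunit Gnal, the cyclase Adcy3 and cyclic-nucleotide-gated channels. Each neuron is known to choose 1 receptor gene out of the clusters in which the family lies. The coding sequence of a receptor usually sits in a single exon, preceded by short untranslated exons that many gene models lack. Transcripts of some family members have long been known in testis and sperm, and a few receptors there have been linked to chemotaxis.

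Among all RefSeq genes of the table, 62.3% had a model coded other than XX, and among those outside the Olfr family 65.3%. The share among Olfr genes was 5.37%. Other chemoreceptor families also had low shares. Of the vomeronasal receptors, 12 of 195 Vmn1r genes (6.15%) and 8 of 125 Vmn2r genes (6.4%) had such a model. It was found for 4 of 35 Tas2r bitter taste receptors (11.4%), 2 of 15 Taar trace amine receptors (13.3%), 1 of 3 Tas1r taste receptors (33.3%) and 0 of 6 Fpr formyl peptide receptors. The share was 43.4% among 1048 coding genes outside the family with single-exon RefSeq models only, and 17.4% among the 321 of these with 900 to 1200 nt, the length class of most receptors. Genes of the other chemoreceptor families were not left out of these single-exon sets, so the sets are not independent of the shares above. How much of the low share of Olfr genes goes with their structure was not tested.

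**Figure D1:**
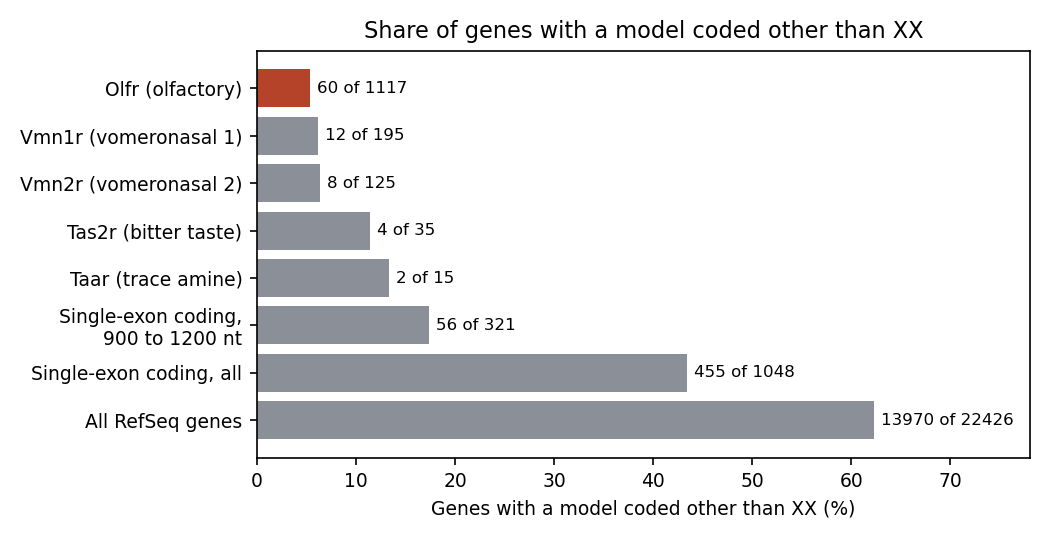
Percent of genes with a model coded other than XX (x axis) in the Olfr family, other chemoreceptor families and RefSeq gene sets (y axis), 1 bar per set. The bar of Olfr genes (5.37%) is next to those of Vmn1r (6.15%) and Vmn2r (6.4%) genes, against 62.3% of all RefSeq genes.

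The retained genes were spread over the family and not gathered in 1 receptor class. Receptor subfamilies were read from the MOR names that RefSeq lists as synonyms. MOR1 to MOR42 are the class I receptors, known as fish-like, and higher numbers are class II. The 4 genes of MOR0, all XX only, were given no class and are not counted here. A MOR name was found for 59 of the 60 retained genes (not for Olfr1246) and for 1029 other XX-only genes. Class I receptors made up 11.9% of the retained genes with a name and 11.1% of the XX-only genes with one. All 7 retained class I genes lay in the large cluster on chromosome 7: Olfr545, Olfr549, Olfr559, Olfr589, Olfr611, Olfr635 and Olfr658. Where the XX-only class I genes lay was not compared, so this location is not a trait of the retained genes. The 59 named genes fell into 46 MOR subfamilies, and 10 subfamilies held 2 or more of them. MOR218 had the most, with 4 of its 10 genes retained, followed by MOR256 with 3 of 50. MOR120 and MOR152 had 2 of 3 each, MOR113 had 2 of 6, MOR239 had 2 of 7, MOR253 had 2 of 10, MOR262 had 2 of 12, and MOR202 and MOR204 had 2 of 31 each.

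With Olfr genes less than 500 kb apart joined into 1 cluster, the family formed 54 clusters, and 23 of them held a retained gene. Among the 16 clusters of at least 20 genes, 13 held one. The other 31 clusters, with 201 genes between them, held none, and the largest of those had 37 genes, on chromosome 2. The median retained gene lay in a cluster of 51.5 Olfr genes and the median XX-only gene in one of 56. Cluster edges held 8.33% of the retained genes and 8.80% of the XX-only genes. With gaps of 100 kb in place of 500 kb, the shares were 18.3% of the retained and 12.2% of the XX-only genes. With gaps of 1000 kb they were 8.33% of the retained and 7.95% of the XX-only genes. With either gap the order of the groups turned. With gaps of 500 kb the retained genes at an edge were Olfr1507, Olfr275, Olfr460, Olfr461 and Olfr541.

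The members can be listed by chromosome, with coordinates of the mm9 build counted from 1 for those described in detail. Chromosome 7 held 13: the 7 class I genes together with Olfr299, Olfr469, Olfr478, Olfr541, Olfr61 and Olfr701. Chromosome 9 held 8: Olfr834, Olfr836, Olfr837, Olfr845, Olfr902, Olfr922, Olfr951 and Olfr982. Chromosome 2 held 7 in a cluster of 225 genes: Olfr1020, Olfr1033, Olfr1156, Olfr1188, Olfr1199, Olfr1246 and Olfr1270. Chromosome 19 held 7 in a cluster of 61 genes: Olfr1424, Olfr1425, Olfr1441, Olfr1444, Olfr1445, Olfr1490 and Olfr1499. Chromosome 10 held Olfr8 and 5 genes of a cluster of 56: Olfr798, Olfr799, Olfr814, Olfr815 and Olfr820. Chromosome 17 held 6 in a cluster of 47: Olfr110, Olfr126, Olfr127, Olfr128, Olfr761 and Olfr95. Chromosomes 6 and 11 held 3 each (Olfr448, Olfr460 and Olfr461, and Olfr320, Olfr411 and Olfr1386). Chromosomes 4, 13 and 14 held 2 each, which were Olfr275 and Olfr29-ps1, Olfr1367 and Olfr1535, and Olfr733 and Olfr1507. Chromosome 1 held Olfr1408. The 9 Olfr genes of chromosome 15, 39 of chromosome 16, 6 of X, 5 of chromosome 8 and 2 of chromosome 3 were all XX only.

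These chromosome counts differed in share as well as number. The share was highest on chromosome 13, where 15.4% of 13 Olfr genes were retained. It was 12% on chromosome 17, 11.5% on chromosome 19 and 10.7% on chromosome 6, against 2.41% of the 290 on chromosome 2. With 2 to 7 members on each of these chromosomes, such shares are small counts.

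**Figure D2:**
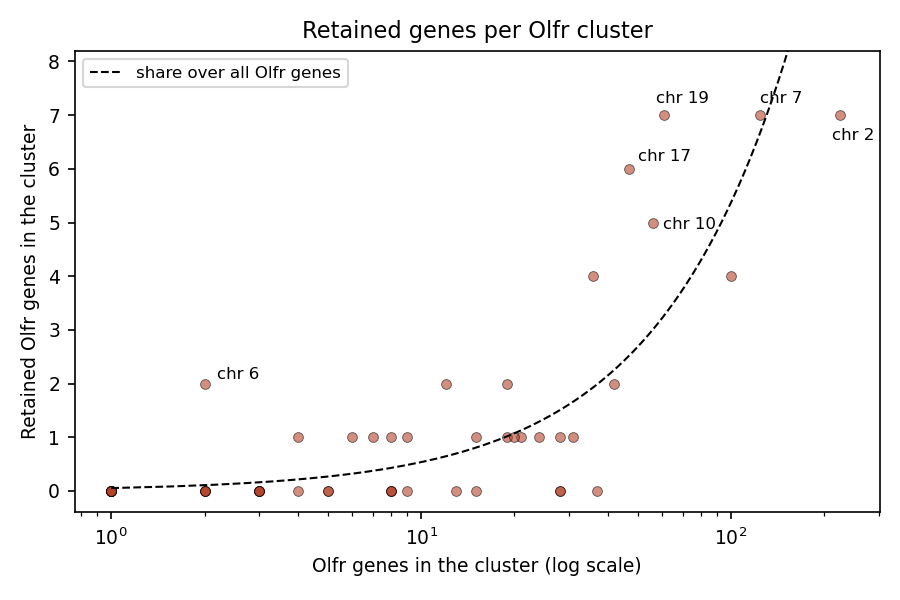
Retained Olfr genes per cluster (y axis) against the number of Olfr genes in the cluster (x axis, log scale), 1 point per cluster, with darker points where clusters coincide. The dashed line is the share over all Olfr genes, 5.37%; the clusters of chromosomes 17 and 19 lie above it and the 225-gene cluster of chromosome 2 lies below it.

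Some retained genes stood beside each other. The nearest Olfr gene was itself retained for 9 of 60 retained genes (15%) and for 51 of 1057 XX-only genes (4.83%), beside 5.37% over the whole family. A retained Olfr gene lay within 50 kb of 25% of the retained genes and 15.0% of the XX-only genes. This measure uses the same codes as the choice of members and is a description.

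Next to each other on a chromosome stood 9 pairs of retained genes, formed by 16 genes. In 8 of the 9 pairs (88.9%) both receptors were of 1 MOR subfamily. Among these, Olfr126 with Olfr127, Olfr127 with Olfr128 and Olfr128 with Olfr761 share genes and come from 1 run of MOR218. They are not separate cases. The share of pairs within 1 subfamily was 48.4% among neighbours with 1 retained gene (45 of 93 with names). It was 62.7% among pairs with none (577 of 920). The exception was Olfr798 and Olfr799 on chromosome 10, of subfamilies MOR108 and MOR114 and 21070 bp apart. On the same chromosome, Olfr814 and Olfr815 (MOR113) were 27020 bp apart. Olfr1424 and Olfr1425 (MOR239) on chromosome 19 were 13944 bp apart, and Olfr836 and Olfr837 (MOR152) on chromosome 9 were 15016 bp apart. Olfr461 and Olfr460 (MOR120) formed a cluster of 2 on chromosome 6, at 40494035 to 40494976 on the minus strand and 40521387 to 40522331 on the plus strand, with their starts at the inner ends of the pair, 26410 bp apart. This was a cluster in which every gene was retained.

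The longest run was on chromosome 17, where 4 neighbouring genes of subfamily MOR218 were all retained. Olfr126 lay at 37987539 to 37988498, Olfr127 at 38040493 to 38041464 and Olfr128 at 38060513 to 38061439, all on the plus strand. Olfr761 lay at 38088996 to 38089967 on the minus strand. The gaps between them were 51994, 19048 and 27556 bp. All 4 had 1 single-exon RefSeq-derived model. The other 6 genes of MOR218 were XX only.

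The 150 bases before the RefSeq start of Olfr127 and Olfr128 are shown because both genes are neighbours, retained and of 1 subfamily, and because models on the opposite strand reach into this stretch. The sequences are from RefSeq on GRCm38.p6, a later build than that of the table. Capitals mark the words TATAAA and its complement TTTATA and, in Olfr128, CAGTTG, the complement of CAACTG, a word that MYB factors can bind.
Olfr127, chr17:37903398-37903547, plus strand: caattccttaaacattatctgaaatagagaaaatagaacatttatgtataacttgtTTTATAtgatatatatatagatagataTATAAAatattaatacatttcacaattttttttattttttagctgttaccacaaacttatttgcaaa
Olfr128, chr17:37923418-37923567, plus strand: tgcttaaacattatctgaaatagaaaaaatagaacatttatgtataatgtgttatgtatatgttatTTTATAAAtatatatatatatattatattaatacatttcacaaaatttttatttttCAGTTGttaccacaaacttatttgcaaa
In both windows the base after the printed stretch begins an ATG, so the annotated start coincides with an ATG and not with an untranslated exon. The full windows, of 250 bases before and 50 after the start, were 83.3% identical over 311 alignment columns. Windows of Olfr127 with XX-only MOR218 genes were 52.8% to 59.9% identical, and those of Olfr128 with XX-only MOR218 genes were 51.9% to 60.8% identical. Olfr113 and Olfr114, both XX only, were 86.0% identical, so high identity between neighbours was also found among XX-only genes. Windows for Olfr126 and Olfr761 were not used here.

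Unnamed models lay on the opposite strand over a few receptors of both groups. An exon of a model with only a CUFF identifier, of the form the Cufflinks assembler gives, overlapped an exon on the other strand by at least 1 bp in 6 of 60 retained genes (10%) and 5 of 1057 XX-only genes (0.473%). Outside the family the share was 3.88% of retained RefSeq genes and 3.63% of XX-only RefSeq genes, or 3.79% of both together. Among coding genes outside the family with single-exon RefSeq models only, it was 3.74% of the retained and 1.69% of the XX-only genes. The 4 MOR218 neighbours supplied 4 of the 6 genes. Without the MOR218 subfamily the shares were 3.57% of retained and 0.476% of XX-only Olfr genes.

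All 6 opposite-strand models had a similar layout: each started inside the receptor's exon and ran out past its start. Over Olfr126, a single-exon model of 424 nt began 375 nt inside the gene and reached 49 nt past its start. Over Olfr127, a model of 2 exons and 903 nt began 380 nt inside and reached 760 nt past the start, with an intron across the start itself. Over Olfr128, a single-exon model of 1122 nt began 383 nt inside and reached 739 nt past the start. These 3 antisense starts lay within 8 nt of each other relative to the receptor start.

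Over Olfr761, a single-exon model of 660 nt began 276 nt inside and reached 384 nt past the start. The remaining genes were on chromosome 14. Olfr733 (50918012 to 50919005, minus strand, MOR241-2) was overlapped by a model of 806 nt that began 714 nt inside and reached 92 nt past the start. Olfr1507 (53109610 to 53115370, minus strand), the receptor also named Mor28 and much used in studies of receptor choice, was overlapped by a model of 1522 nt. That model began 1028 nt inside the shorter, single-exon RefSeq model and reached 494 nt past its start, into the intron of the longer one.

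The 6 antisense models themselves were all coded XX, as were nearly all CUFF-alone models: only 2 of 12088 had another code. The 5 XX-only genes with such an overlap were Olfr1413, Olfr31, Olfr1279, Olfr13 and Olfr554. The layout was not particular to the retained genes: the models over Olfr1413 (609 nt inside, 705 nt past the start), Olfr31 (792 and 148 nt) and Olfr13 (843 and 11442 nt) had it too, and those over Olfr1279 and Olfr554 ran the whole length of the gene. In none of the 6 XX-only MOR218 genes was an opposite-strand model found. On the same strand, CUFF-alone exons overlapped 0 retained genes and 2 XX-only genes. Whether the libraries behind the models kept the strand is not given, and without strand, reads of a receptor and of its antisense partner cannot be told apart. Whether a code other than XX goes with reads from the opposite strand was not tested.

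**Figure D3:**
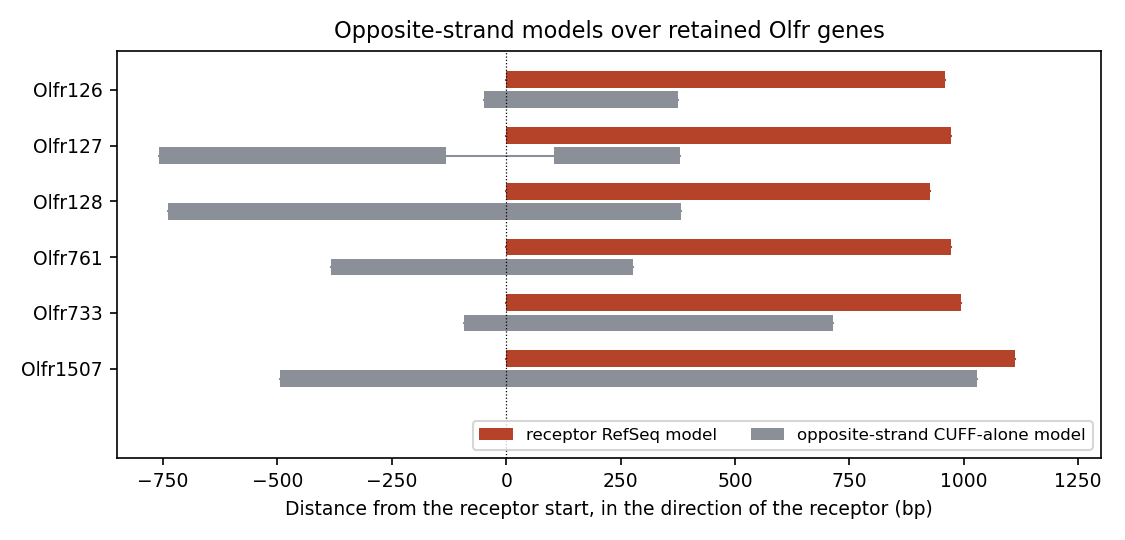
Positions of the 6 retained Olfr genes with an opposite-strand CUFF-alone model (upper bar of each pair, receptor; lower bar, opposite-strand model; thin line, intron), as distance from the receptor start in the receptor's direction (x axis, bp). All 6 opposite-strand models reach across the start, and those of Olfr126, Olfr127 and Olfr128 begin 375, 380 and 383 nt inside the gene.

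Most retained genes kept the plain structure of the family. Of the 60, 52 had single-exon models only and 56 had only 1 model. A model of 2 or more exons was found for 8 retained genes (13.3%) and 102 XX-only genes (9.65%). With RefSeq-derived models alone the shares were 8.33% and 9.08%, so the order of the groups turned. The longest spliced model had a median of 954.5 nt in retained genes (quartiles 941.25 and 1042.25) and 945 nt in XX-only genes (936 and 981). Retained genes ranged between 921 and 3944 nt and XX-only genes between 577 and 5137 nt. RefSeq genes outside the family had a median of 2482 nt, and 90.9% of them had a multi-exon model (95.7% of the retained and 81.8% of the XX-only genes).

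In many genes the length of the RefSeq-derived model was a multiple of 3, as that of a bare coding sequence is. A model with untranslated sequence can have such a length too, so length alone does not tell these apart. Among genes with only single-exon RefSeq-derived models, the length was a multiple of 3 in 45 of 55 retained genes (81.8%) and 852 of 957 XX-only genes (89.0%). A length not divisible by 3 marks a model with untranslated sequence or a frame shift, and 10 of the 55 retained genes had one.

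**Figure D4:**
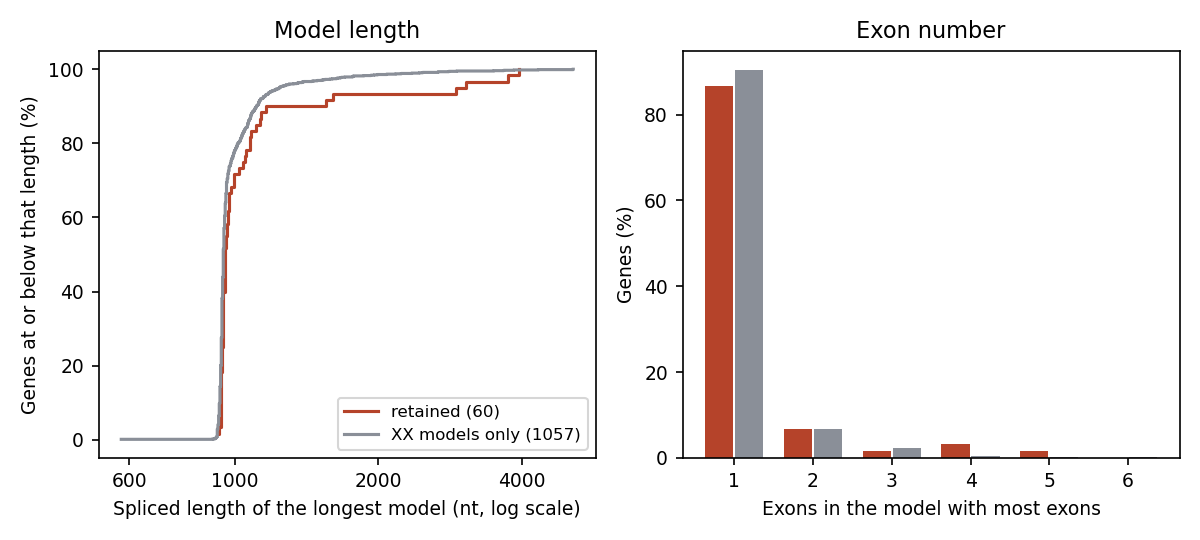
Left, percent of retained and XX-only Olfr genes (y axis) whose longest model has at most the spliced length on the x axis (nt, log scale). Right, percent of genes (y axis) by the number of exons in the model with most exons (x axis), with the retained bar left of the XX-only bar; the median length is 954.5 nt in retained and 945 nt in XX-only genes, and 52 of 60 retained genes have 1 exon.

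Among the 8 multi-exon genes, 5 had the exons in a RefSeq-derived model. Olfr701, a class II receptor (MOR283-1) on chromosome 7 at 113957658 to 113964223, had the most exons in the group: 5 exons and 3063 nt, the last exon taking 2647 nt. Its other names, 4932441H21Rik and 4933433E02Rik, are those of RIKEN cDNA clones. Its first exon of 73 nt faced an unnamed model of 2 exons on the other strand, with 74 bp between the starts. Olfr1033 (chromosome 2, 85860797 to 85884965) had 3 exons and 3743 nt. Olfr658, the class I receptor MOR34-5 (chromosome 7, 111791394 to 111795819), had 2 exons and 2912 nt. Olfr1507 had a model of 2 exons and 1605 nt beside its single-exon model, and Olfr110 (chromosome 17, 37629413 to 37636619) had 2 exons and 1106 nt.

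The 150 bases before the RefSeq start of Olfr701 are shown because this was the receptor with a 5-exon model and a partner on the other strand. Capitals mark CCAAT, the word of CCAAT-box promoters, and the first base after the printed stretch does not begin an ATG.
Olfr701, chr7:106813979-106814128, plus strand: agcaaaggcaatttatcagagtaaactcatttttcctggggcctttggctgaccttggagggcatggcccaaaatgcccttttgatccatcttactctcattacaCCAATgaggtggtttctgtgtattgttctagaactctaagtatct
The printed bases hold neither TATAAA nor its complement, but the full window of this gene, which reaches farther upstream, holds the complement and is counted among the windows with that word.

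The remaining 3 multi-exon genes had their exons in CUFF models, and they were the only retained genes with a CUFF model of their own symbol (3 of 60, 5%, against 19 of 1057 XX-only genes, 1.80%). A CUFF model with a symbol was found for 39.5% of retained RefSeq genes outside the family and for 11.8% of XX-only ones, 29.9% in all. For coding genes outside the family with single-exon RefSeq models only, the shares were 18.9% of the retained and 1.85% of the XX-only genes. Of the 27 CUFF models with an Olfr symbol, 4 were coded other than XX, against 75.5% of all 9495 CUFF models with a symbol. The 3 genes differed in how much of the receptor their models held.

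Olfr1444 (MOR202-4) on chromosome 19 had the longest spliced model among the retained genes. Its CUFF model of 2 exons and 3944 nt, at 12930869 to 12939098, began 5398 nt upstream of the RefSeq-derived model and ended 1872 nt downstream of it. The second exon covered 100% of the receptor's 960 nt. Its RefSeq-derived model and a single-exon CUFF model of 1690 nt with the same start were coded XX. The gene was therefore retained through 1 of its 3 models, the only one that joins the upstream exon to the receptor. Its neighbour Olfr1445, 19274 bp away, was retained through a single-exon RefSeq-derived model.

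Olfr1188 (MOR238-2) on chromosome 2 had a RefSeq-derived and a CUFF model, neither coded XX. The CUFF model had 4 exons and 1163 nt, and 3 small exons of 167, 109 and 72 nt preceded the receptor exon. Its first exon began 40575 nt upstream of the RefSeq start, and the whole of Olfr1186, an XX-only receptor, lay in its second intron. Its last exon began at the same base as the RefSeq-derived model and covered 815 of its 968 nt (84.2%), ending 153 nt short of its end.

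Olfr275 (MOR262-2) on chromosome 4 had 2 CUFF models coded NM and a RefSeq-derived model coded XX. Both CUFF models began 10795 nt upstream of the receptor, at 52827476, and shared their first exon of 129 nt with 4930552N02Rik, a noncoding gene of 4 exons whose model was coded NR. The model of 4 exons and 1555 nt overlapped the receptor by 103 nt, 10.7% of its length, in an exon that 4930552N02Rik also has. The model of 3 exons and 1361 nt overlapped the receptor exon by 0 nt. The exons that put Olfr275 among the retained genes were thus largely those of the noncoding gene, and Olfr275 was the one retained gene that overlapped the span of a retained gene outside the family. No XX-only Olfr gene did.

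**Figure D5:**
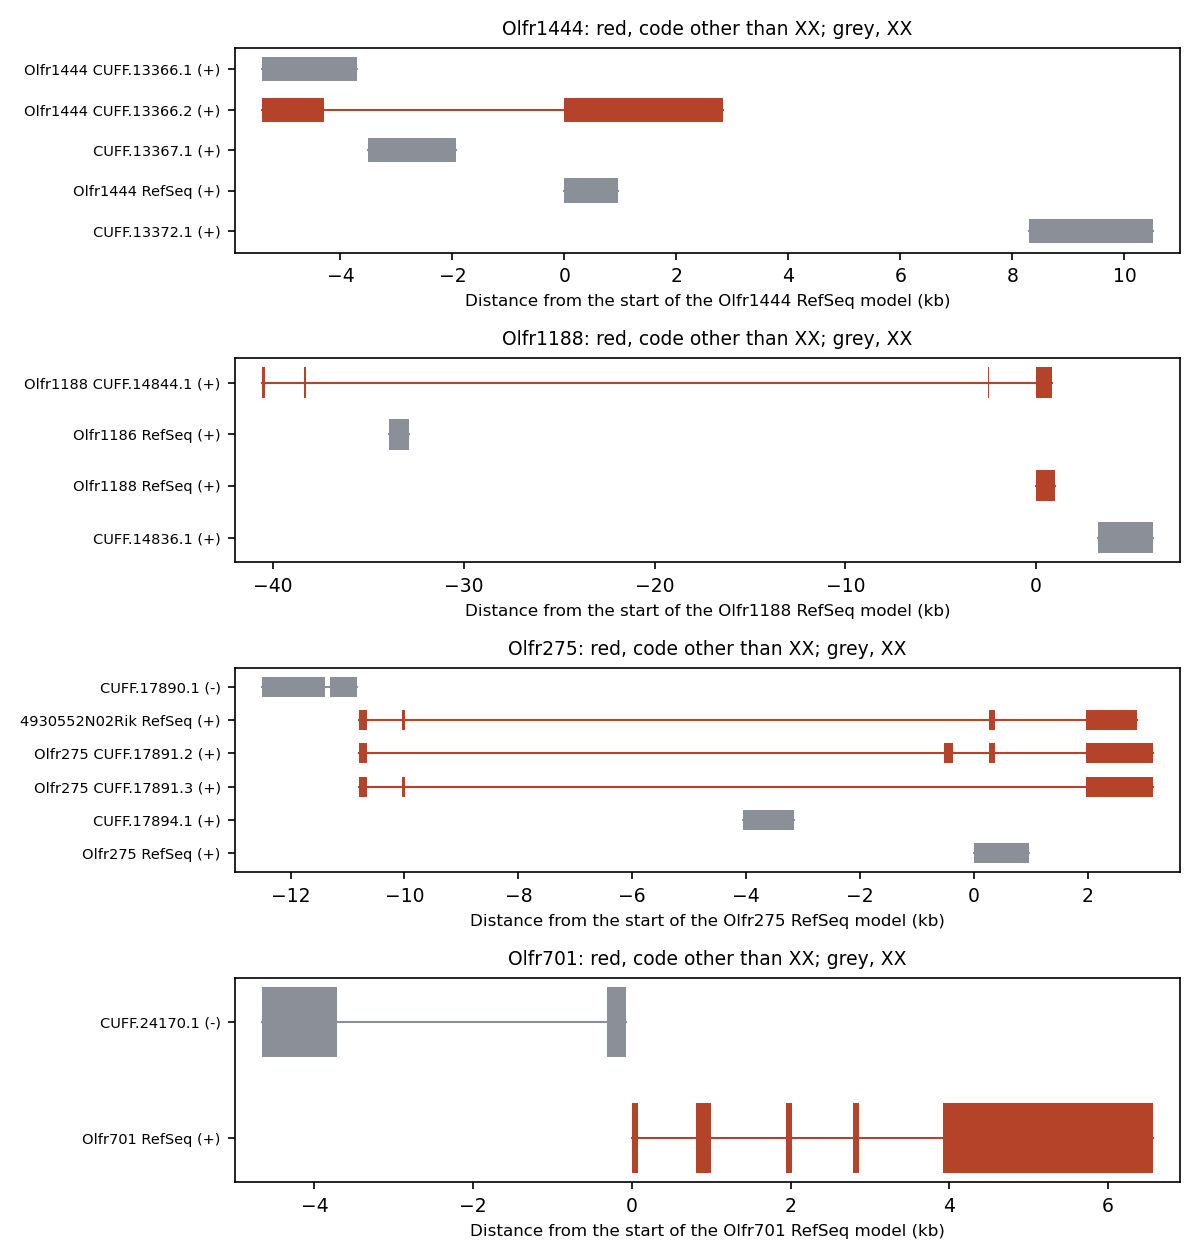
Exons (boxes) and introns (lines) of the models around Olfr1444, Olfr1188, Olfr275 and Olfr701, 1 panel per gene, against distance from the start of the receptor's RefSeq-derived model (x axis, kb). The CUFF model of Olfr1444 spans the whole receptor, that of Olfr1188 starts 40575 nt upstream, and those of Olfr275 share exons with 4930552N02Rik.

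XX-only receptors had 22 CUFF models in 19 of 1057 genes, and 9 of these models were multi-exon. By the definition of the group, all of them were coded XX. The genes were Olfr112 with 3 such models, Olfr1393 with 2, and Olfr1192-ps1, Olfr1280, Olfr1344, Olfr1381, Olfr1392, Olfr181, Olfr194, Olfr212, Olfr215, Olfr27, Olfr303, Olfr39, Olfr393, Olfr463, Olfr697, Olfr873 and Olfr874 with 1 each. Olfr194 on chromosome 16 had a 3-exon CUFF model that began 27650 nt upstream of the RefSeq start and covered 100% of the receptor, a layout like that of Olfr1188 under an XX code. The longest XX-only genes were Olfr613 with 5137 nt, Olfr1443 with 4337 nt and Olfr536 with 3853 nt. The most exons were 6 in Olfr56 and 5 each in Olfr32 and Olfr631. Long or multi-exon models were thus found in both groups.

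Genes outside the family gave little contrast between the groups. The nearest gene that is not an Olfr was retained for 29 of 60 retained genes (48.3%) and 485 of 1057 XX-only genes (45.9%). Its median distance was 92354 bp for retained genes and 124413 bp for XX-only genes. A retained gene outside the family lay within 50 kb of 18.3% of retained and 13.9% of XX-only genes. The median distance to the nearest one was 255946 bp for retained and 246211 bp for XX-only genes. Olfr549 had the closest apart from Olfr275, with Trim21, a ubiquitin ligase that binds antibodies, 2685 bp away. Olfr1367 and Olfr1535 on chromosome 13 had the zinc finger genes Zscan12 (14939 bp) and Zfp192 (23928 bp) nearby. Olfr461 had Prss37, a protease-like gene needed for male fertility in mice, 24502 bp away.

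Retained receptors were mostly inside dense arrays. The nearest Olfr gene was a median of 14790.5 bp away from retained and 13502 bp away from XX-only genes. The members farthest from any other Olfr gene were Olfr1367 at 189093 bp, Olfr1408 at 52226 bp, Olfr834 at 42401 bp, Olfr951 at 31387 bp and Olfr761 at 27556 bp. The nearest CUFF-alone model was a median of 102780.5 bp from retained and 156456 bp from XX-only genes. Loci named for piRNAs, the small RNAs of germ cells, were far off in both groups, with medians of 3989722 bp for retained and 4737806 bp for XX-only genes. The closest to a retained gene was 48515 bp from Olfr1535.

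Promoter windows of RefSeq were found for 49 of the 60 retained genes (50 windows) and 873 XX-only genes (876 windows), and were set beside all 32851 windows of the table. Each ran 250 bases before to 50 after the start. The G+C content had a median of 35.2% in retained and 35% in XX-only genes, against 52.7% over all windows. The ratio of observed to expected CpG had a median of 0.104 in retained and 0.107 in XX-only genes, against 0.384 over all. In 68% of the retained and 72.8% of the XX-only windows the start base began an ATG, against 5.83% of all windows, so most of these windows lie upstream of a coding sequence and not of a mapped transcript start.

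Short words were searched on both strands as spelled, and a match is a description, not a site. TATAAA was in 38% of retained, 41.2% of XX-only and 13.6% of all windows. TAATTA, the core of homeodomain sites such as those of Lhx2, was in 24% of retained, 18.4% of XX-only and 5.29% of all windows. CCCNNGGG, the word of the Ebf (O/E) factors, was in 0 of 50 retained, 3.20% of XX-only and 13.7% of all windows. TGACGT, the core of the cAMP response element, was in 0 of 50 retained, 1.37% of XX-only and 7.51% of all windows. CCAAT was in 46% of retained, 40.3% of XX-only and 37.4% of all windows.

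A-MYB (Mybl1), a transcription factor that spermatocytes need in meiosis, was the subject of the study. A MYB word, meaning TAACTG or TAACGG or CAACTG or CAACGG on either strand, was in 17 of 50 retained windows (34%), 29.8% of XX-only windows and 28.3% of all windows. Leaving out the windows that begin at an ATG, it was in 8 of 16 retained windows (50%) and 60 of 238 XX-only windows (25.2%), against 28.4% of all windows. With the same restriction CCAAT was in 10 of 16 retained windows (62.5%), 44.1% of XX-only and 37.4% of all windows. In the same order, TAATTA was in 25%, 18.1% and 4.88%, and TATAAA in 31.25%, 34.0% and 12.65%. CCCNNGGG and TGACGT were in 0 of 16 retained windows, and in 7.98% and 2.52% of XX-only windows. The 16 windows are few, and this restriction was chosen after the windows had been seen. The stretches of 30 bases around each MYB word are shown for 7 of the 8 retained windows with one, because the annotated start there does not begin an ATG. Such a start need not be a transcript start. It comes from RefSeq on GRCm38.p6, so it need not be the start of the retained model either. That of Olfr1188 is also the base where the last exon of its CUFF model begins. The word is in capitals and the sequence runs in the direction of the gene.
Olfr1156, chr2:87950299-87950328, minus strand: gatttttttctgCAGTTAatagaaatctct
Olfr1188, chr2:88559471-88559500, plus strand: atgcccaacagcattCAACTGagagaaaag
Olfr1246, chr2:89591289-89591318, minus strand: gaatagaattatCAACTGaaactctgtttg
Olfr1270, chr2:90150056-90150085, minus strand: ctgtaaatgatgTAACTGgtgctacaatgt
Olfr1270, chr2:90149998-90150027, minus strand: ttcacttctcctCAACTGaatccatggcca
Olfr478, chr7:108034106-108034135, minus strand: gtatttgtgttaCAGTTGtttgaaataaac
Olfr701, chr7:106814131-106814160, plus strand: gccccgtagcaaCAACTGacaagcacatga
Olfr902, chr9:38448759-38448788, plus strand: ttgcaactacaaCAACTGcttctgtagaaa
In these 7 windows the word began between 160 bases before the start (Olfr1246) and 35 bases after it (Olfr1188). Olfr1270 held a word on either side of its start, 37 bases before and 21 after. In Olfr701 it began 14 bases after the start and in Olfr902 it began 21 bases before. Whether MYB proteins bind any of them was not tested.

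A list of 5 receptors known from other work to act outside the nose was looked up. Olfr16 (MOR23), the sperm receptor for lyral, was XX only, and so were Olfr78, Olfr544, Olfr558 and Olfr1393, which are known from tissues such as kidney. Thus 0 of these 5 genes were retained, beside 5.37% over the family. This says that their models were coded XX in this table and not that they are silent in testis.

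The genes that receptor signalling uses in the nose had mixed codes. Of 16 olfactory transduction genes, 11 were retained, beside 65.3% of RefSeq genes outside the family. These included Gnal, Adcy3 and the channel subunit Cnga4. The 5 XX-only genes were the channel subunits Cnga2 and Cngb1, the olfactory marker protein gene Omp, the exchanger gene Slc24a4 and Stoml3, a stomatin-like protein of olfactory cilia. Among genes that carry receptors to the surface, Rtp1 and Reep1 were retained and Rtp2 was XX only. Of 10 genes of receptor choice, 6 were retained, Lhx2, Ebf1, Ldb1, Kdm1a, Atf5 and Ddit3, and Emx2, Ebf2, Ebf3 and Ebf4 were XX only. All 12 genes found of sperm cAMP and calcium signalling were retained, among them the soluble cyclase Adcy10 and the sperm calcium channel genes Catsper1 to Catsper4.

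Cell type markers were counted in the same way, beside the same 65.3% of RefSeq genes outside the family. Of 11 markers of olfactory sensory neurons 6 were retained, and all 11 are genes already counted above among those of transduction and export. All markers of spermatids (7), pachytene spermatocytes (7), spermatogonia (6), Sertoli cells (5), Leydig cells (5) and vascular and immune cells (5) were retained. These codes do not give levels, so the cells in which a retained receptor might be transcribed cannot be told apart.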

How the data were processed

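The study ran CAGE and PAS-Seq on testis RNA. The submitters' processing notes name TopHat2 2.0.4 and build mm9. The sources used here do not state how the deposited models were assembled, filtered and coded. The deposited table, without header and with 12 columns, gave start and end positions (bp), exons with their lengths, and a code in column 9. Genes were grouped by symbol and code, distances were taken between gene spans, and clusters joined Olfr genes with gaps under 500 kb. Pandas 2.3.3 on Python 3.11.15 and Biopython 1.88 were used, and overlaps were checked against bedtools. RefSeq tables (GRCm38.p6) gave synonyms and promoter windows. No test was possible, since the table has no value per library and each group is 1 library. Planned protein features were not run, as no protein table was used here. Genes were named by a rule: retained genes with a CUFF model coded other than XX, extremes of length, model number, exon number and isolation, all members of the clusters with the most, overlaps with retained genes, and mixed codes, with stated XX-only genes and lists. Other genes, the MOR and opposite-strand comparisons among them, were chosen after their values were seen. Members and lists were chosen with earlier results of these data known. The sequence of 1 window with a MYB word is not reported here.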

Additional observations from a re-analysis of the deposited data

How the results depend on the processing

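Of 20 alternatives, 17 planned and 3 chosen after seeing the data, 16 left a share or median within its 95% interval or changed a count by no more than the counts given here, and 4 moved it further. These intervals are wide with 60 genes: among the 16, the share at a cluster edge was 18.3% of retained and 12.2% of XX-only genes with gaps of 100 kb, and the share with a multi-exon model was 8.33% of retained and 9.08% of XX-only genes with RefSeq-derived models only. In both the order of the groups turned. With gaps of 1000 kb, 8.33% of retained and 7.95% of XX-only genes lay at a cluster edge, so the order turned there too. With multi-exon genes only, the median longest model was 2258 nt in 8 retained and 1198 nt in 102 XX-only genes. Of the 8, Olfr1444 and Olfr275 are members only through multi-exon CUFF models, so this contrast is not independent of the choice of members. Counting any retained gene outside the family within 50 kb in place of the nearest gene gave 18.3% of retained and 13.9% of XX-only genes. Without the MOR218 subfamily, opposite-strand models overlapped 3.57% of retained and 0.476% of XX-only genes, and a retained nearest Olfr gene was found for 10.7% of retained and 4.76% of XX-only genes. Without windows that begin at an ATG, 50% of retained and 25.2% of XX-only windows held a MYB word. The number of retained genes was 58 with RefSeq-derived models only, 58 with every model required to be coded other than XX, and 59 without pseudogene symbols. Clusters with a retained gene numbered 27 with gaps of 100 kb and 21 with gaps of 1000 kb. No paired analysis was possible because the groups have 1 library each and no value per library was analysed. Codes of unknown meaning, unknown depth and strandedness, and small counts limit every comparison.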
